A study of Mus musculus with 6 samples.

Results

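The genes described here encode proteins of the zymogen granule membrane and of granule exocytosis in the pancreatic acinar cell: Gp2, Zg16, Sycn, Cuzd1, Dmbt1, Rab3d, Rab27b, Vamp8, Vamp2 and Stx3. They were taken by name, through every non-control array probe whose gene name is one of these symbols, which gave 10 of 24165 named genes and 16 of 55681 probes. RNA of the whole pancreas of C57BL/6N mice was measured at postnatal day 0.5 on single-colour Agilent arrays, with 2 arrays for each of 3 genotypes. Spink3+/+ mice are wild type and served as control, Spink3-/- mice carry no intact copy of the trypsin inhibitor gene Spink3, and Spink3-/-XKI/+ mice lack it too and carry an additional allele written XKI in 1 copy. The series' design states that acinar cells die in Spink3-/- without apoptosis and with autophagy, and that a portion of them is normal in Spink3-/-XKI/+. The labels do not say what XKI stands for or what drives it, whether animals were pooled, or whether each of the 2 samples per genotype is a different animal; p-values therefore speak only of how these samples vary, and that variation may be technical.

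Acinar cells store digestive enzymes as inactive precursors in zymogen granules and release them at the apical membrane when a secretagogue raises the calcium in the cell. Proteins on the inner face of the granule membrane, such as the glycosylphosphatidylinositol-anchored glycoprotein Gp2, the lectin Zg16 and syncollin (Sycn), line the granule and are released with its content. On the outer face, small GTPases of the Rab family guide the granule to the membrane, and SNARE proteins, the vesicle SNAREs of the Vamp family and the syntaxins they pair with, bring about fusion.

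A probe reports only the stretch of transcript it is complementary to, so the stretch read by 1 probe is shown for each of 5 genes, as 60-base sense sequences, 5′ to 3′, with positions in the mouse build mm9. Each shown stretch is free of stop codons in at least 1 forward reading frame. No base is capitalised, because no motif is marked. The Zg16 and Vamp8 stretches belong to the probes that stand for these genes. Those of Gp2 and Rab3d belong to the dimmer of each gene's 2 probes, and that of Stx3 to a dim probe that spans 2313 bases of the genome and so crosses at least 1 exon junction.
Gp2, dimmer probe, chr7:126590632-126590691, minus strand: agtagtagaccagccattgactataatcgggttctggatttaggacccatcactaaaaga
Zg16, chr7:134193837-134193896, minus strand: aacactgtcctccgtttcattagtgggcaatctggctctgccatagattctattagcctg
Rab3d, dimmer probe, chr9:21719348-21719407, minus strand: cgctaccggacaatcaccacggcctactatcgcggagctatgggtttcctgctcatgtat
Vamp8, chr6:72335520-72335579, minus strand: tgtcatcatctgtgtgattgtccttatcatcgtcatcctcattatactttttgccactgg
Stx3, junction probe, chr19:11857591-11859903, minus strand: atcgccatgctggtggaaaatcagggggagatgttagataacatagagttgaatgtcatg
The other probes, except those of Rab27b, are given by position here or beside their values. The brighter Gp2 probe lies at chr7:126586058-126586117 on the minus strand, 4515 bases downstream of the first along the transcript's direction. Sycn was read at chr7:29327165-29327224, Dmbt1 at chr7:138265063-138265122 and Cuzd1 at chr7:138453211-138453270. Of the 10 genes, 5 lie on chromosome 7, and Dmbt1 and Cuzd1 are close to each other there. The brighter Rab3d probe lies at chr9:21713734-21713793, the Vamp2 probe used at chr11:68905527-68905586 and the Stx3 probe used at chr19:11852038-11852097. Whether a probe lies in an exon of the coding part or in an untranslated end was not analysed here.

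A level below is the log2 of the processed spot signal minus the log2 of the array's 75th percentile, so that 0 is the brightness of that percentile. Levels of different probes are not set against each other. The targeted gene Spink3 had levels of 9.84 and 10.26 in Spink3+/+, 3.25 and 2.95 in Spink3-/-, and 2.64 and 2.34 in Spink3-/-XKI/+, with limma adjusted p-values of 0.00103 and 0.000615 for the falls from wild type. Between 42.4% and 50.8% of spots were well above background on an array, no spot was saturated, and precision is limited by having only 6 arrays. All 12 acinar marker transcripts were well above background on all arrays. Their summed signal, in units of the 75th percentile, was 13410 to 15219 in Spink3+/+, 12208 to 16106 in Spink3-/- and 13883 to 13930 in Spink3-/-XKI/+. The genotypes overlapped on this sum, which follows its brightest markers. In Spink3-/- against Spink3+/+, 8 of the 12 were lower and 4 higher, none called, with a median log2 difference of -0.13. Both Spink3-/- arrays lay below both Spink3+/+ arrays for 4 and above both for 0, beside 16.6% and 16.1% of all tested genes. The arrays lay in 2 rows of 1 slide: both Spink3+/+ arrays and Spink3-/- replicate 1 in the first, Spink3-/- replicate 2 and both Spink3-/-XKI/+ arrays in the second. For Spink3-/-XKI/+ against Spink3+/+, slide row and genotype cannot be told apart by direct comparison.

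All 10 genes were well above background on all 6 arrays through the probe that stands for the gene, its brightest. None passed an adjusted p of 0.05 (limma over 14169 tested genes, Benjamini-Hochberg) in any of the 3 comparisons, where the share of all genes called was 0.0353% in Spink3-/- against Spink3+/+, 0.00706% in Spink3-/-XKI/+ against Spink3+/+ and 0.00706% in Spink3-/- against Spink3-/-XKI/+. At an unadjusted p of 0.05, 0 of 10 passed in the first comparison against 5.06% of all genes, 1 in the second (Gp2) against 7.57%, and 2 in the third (Gp2 and Stx3) against 7.21%. In Spink3-/- against Spink3+/+, 8 of the 10 were lower and 2 higher, with a median log2 difference of -0.14, beside -0.01 over all tested genes. In Spink3-/-XKI/+ against Spink3+/+ they divided into 5 higher and 5 lower with a median of -0.01, beside 0.04. In Spink3-/- against Spink3-/-XKI/+ they divided into 4 higher and 6 lower with a median of -0.15, beside -0.04.

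With 2 arrays per genotype, the groups often do not overlap by the order of 4 values alone. In Spink3-/- against Spink3+/+, 1 gene lay wholly higher (Stx3) and 3 wholly lower (Rab27b, Vamp8 and Vamp2), where 16.1% of all tested genes lay wholly higher and 16.6% wholly lower. In Spink3-/-XKI/+ against Spink3+/+, 3 lay higher (Gp2, Zg16 and Dmbt1) and 4 lower (Rab3d, Vamp8, Vamp2 and Stx3), where the shares over all genes were 26.0% and 16.1%. In Spink3-/- against Spink3-/-XKI/+, 2 lay higher (Rab3d and Stx3) and 5 lower (Gp2, Zg16, Cuzd1, Dmbt1 and Rab27b), where those shares were 13.1% and 21.4%.

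**Figure D1:**
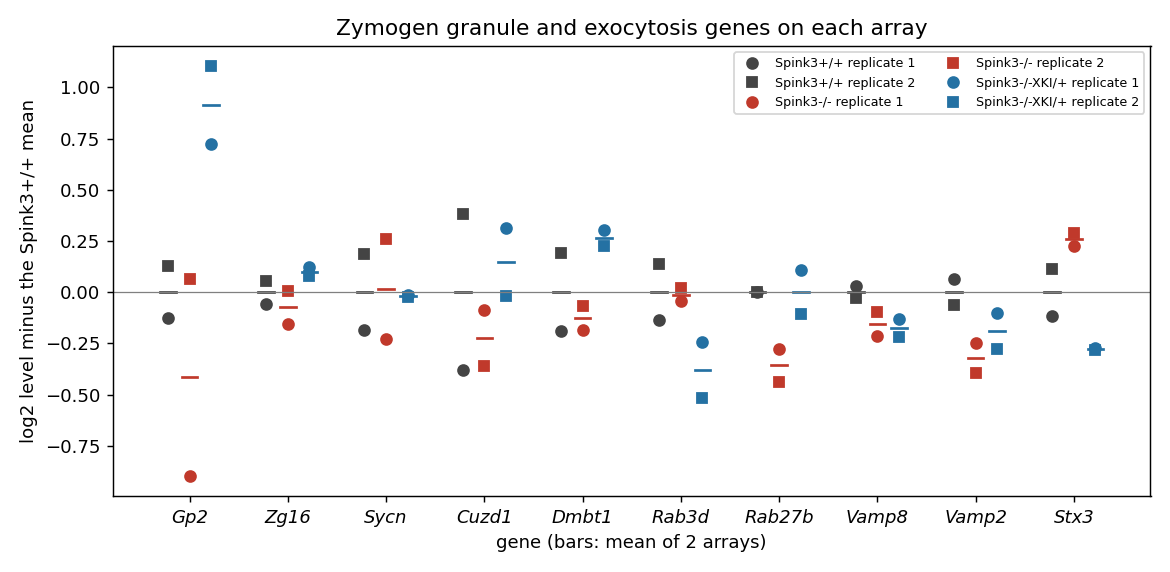
Log2 level of each gene on each of the 6 arrays, minus the mean of the 2 Spink3+/+ arrays, by gene along the horizontal axis. Circles are replicate 1, squares replicate 2 and short bars the mean of a genotype. Gp2 has the widest range, and both Spink3-/-XKI/+ arrays lie above the other 4 arrays for it.

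Gp2 encodes the abundant glycoprotein anchored to the inner face of the granule membrane. Its level was 7.27 and 7.52 in Spink3+/+, 6.50 and 7.46 in Spink3-/-, and 8.12 and 8.50 in Spink3-/-XKI/+. Both Spink3-/-XKI/+ arrays were above all others, and the 2 Spink3-/- arrays were far apart, replicate 1 below and replicate 2 within the Spink3+/+ range.

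Between Spink3-/- and Spink3-/-XKI/+ the Gp2 difference was -1.33 (SE 0.34, 95% interval -2.16 to -0.50, n = 2 per group), a 2.51-fold lower signal in Spink3-/-. The size of this difference was at the 98.8th percentile of all tested genes, with an unadjusted p of 0.00772 and a limma adjusted p of 0.550. Against Spink3+/+, Gp2 was higher by 0.91 in Spink3-/-XKI/+ (SE 0.34, interval 0.08 to 1.74, limma adjusted p = 0.628), a 1.88-fold higher signal. In Spink3-/- the difference from Spink3+/+ was -0.42 (SE 0.34, interval -1.25 to 0.41, limma adjusted p = 0.987), smaller than the spread between the 2 Spink3-/- arrays, and it was 0.064 without Spink3-/- replicate 1.

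The dimmer Gp2 probe, which reads another stretch of the transcript, had the same order of genotype means. Its levels were 4.22 and 4.54 in Spink3+/+, 3.46 and 4.19 in Spink3-/-, and 5.07 and 5.20 in Spink3-/-XKI/+, here with no overlap between any 2 genotypes. The difference between Spink3-/- and Spink3-/-XKI/+ was -1.30 (SE 0.28, limma adjusted p = 0.474 over 24820 probes). Both probes were measured on the same RNA, so they are no replicates of each other.

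Within a slide row, Gp2 was lower in the Spink3-/- array than in the arrays of the other genotype. In the first row the brighter and the dimmer probe differed from the Spink3+/+ mean by -0.90 and -0.91, and in the second row from the Spink3-/-XKI/+ mean by -0.85 and -0.94. With slide row as a block, the Gp2 difference of Spink3-/-XKI/+ against Spink3+/+ turned to -0.047, since the 2 Spink3-/- arrays, 1 per row, then carry the comparison, and that of Spink3-/- against Spink3-/-XKI/+ was -0.85 (limma adjusted p = 0.517, and from 0.302 to 0.816 over 12 alternatives). Leaving out single arrays moved the latter between -1.81, without Spink3-/- replicate 2, and -0.85, without Spink3-/- replicate 1. The -0.85 of the brighter probe in the second row, with the block and without Spink3-/- replicate 1 is 1 and the same contrast. It sets Spink3-/- replicate 2 against both Spink3-/-XKI/+ arrays.

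Transcripts of other cells differed between the same samples. The 12 liver marker transcripts summed to 63.3 to 79.8 in Spink3+/+, 119 to 127 in Spink3-/- and 71.7 to 89.1 in Spink3-/-XKI/+. Their median log2 level was 0.05 and 0.49 in Spink3+/+, 2.73 and 1.84 in Spink3-/-, and -0.16 and 1.62 in Spink3-/-XKI/+, so the Spink3-/-XKI/+ arrays were far apart. The 11 endocrine markers summed to 2671 to 2679, 2576 to 2922 and 3040 to 3133, and the 10 macrophage markers to 44.5 to 49.8, 55.1 to 56.2 and 58.5 to 72.7, in the same order. The neutrophil sum, over 8 of 9 markers, was 116 to 168 in Spink3+/+ and between 76.6 and 98.5 in the other genotypes. The 8 tested duct markers summed to 48.7 to 49.3, 43.9 to 52.9 and 45.8 to 50.7, with overlap. Single duct markers differed from Spink3+/+ by -1.17 to 0.70 in Spink3-/- and by -1.19 to 0.99 in Spink3-/-XKI/+, none called. The part of these transcripts in the values of the 10 genes was not tested. In whole pancreas, fewer acinar cells and less RNA per acinar cell cannot be told apart.

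**Figure D2:**
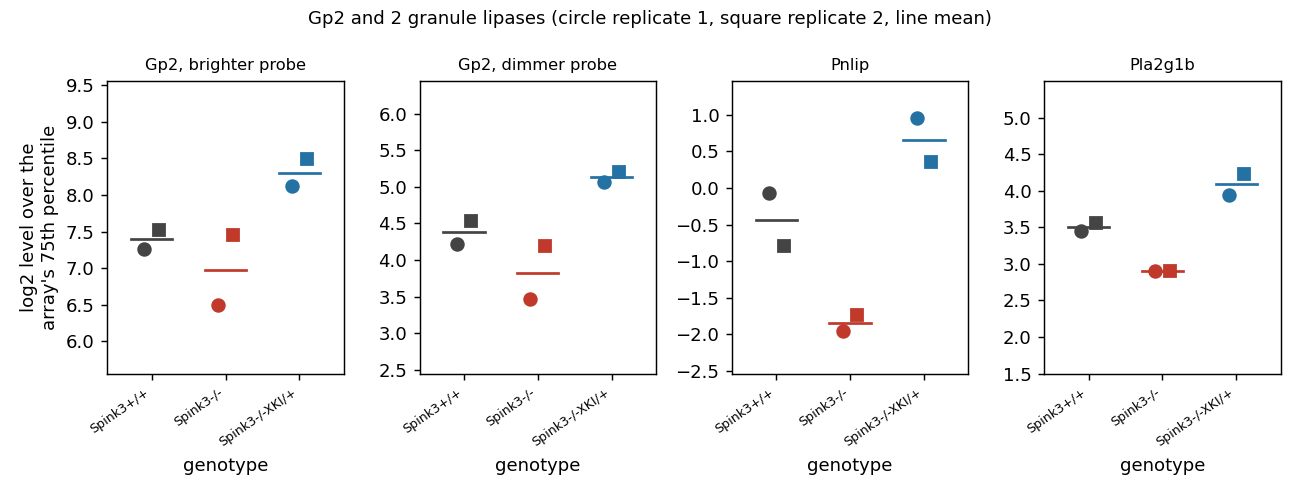
Levels (log2, 0 at the 75th percentile of an array) by genotype for both Gp2 probes and for the lipolytic granule enzymes Pnlip and Pla2g1b, chosen for their size of difference, with a vertical span of 4 log2 units in every panel. Circles are replicate 1, squares replicate 2 and lines the mean of 2 arrays. In all 4 panels the Spink3-/- mean is the lowest and the Spink3-/-XKI/+ mean the highest.

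The other proteins of the granule interior and its membrane differed less. Zg16, a lectin that binds granule content to the membrane, had levels of 9.35 and 9.46 in Spink3+/+, 9.25 and 9.42 in Spink3-/-, and 9.53 and 9.49 in Spink3-/-XKI/+. All 6 arrays lay within 0.28 of each other. The interval of the Zg16 difference ran from -0.48 to 0.33 in Spink3-/- against Spink3+/+ and from -0.58 to 0.23 against Spink3-/-XKI/+. Against Spink3+/+, Zg16 in Spink3-/-XKI/+ was higher by 0.10, which turned to -0.015 under quantile normalization and -0.064 with slide row as a block.

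Sycn encodes syncollin, a small protein bound to the inner granule membrane. Its levels were 11.05 and 11.42 in Spink3+/+, 11.00 and 11.49 in Spink3-/-, and 11.22 and 11.21 in Spink3-/-XKI/+. The genotypes overlapped fully, and the means lay between 11.21 and 11.25. The 95% intervals of its differences were -0.56 to 0.59, -0.59 to 0.55 and -0.54 to 0.61 in the order of comparisons above, so their upper limits reach at most a 1.52-fold higher signal.

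Dmbt1, a scavenger receptor protein whose product in acinar cells lines the granule, had levels of 9.55 and 9.93 in Spink3+/+, 9.55 and 9.67 in Spink3-/-, and 10.04 and 9.96 in Spink3-/-XKI/+. Both Spink3-/-XKI/+ arrays were above the other 4, and the Spink3-/- arrays overlapped with Spink3+/+. The difference between Spink3-/- and Spink3-/-XKI/+ was -0.39 (SE 0.19, interval -0.86 to 0.08, limma adjusted p = 0.731). Zg16 and Dmbt1 are also made by the intestinal epithelium. The intestinal genes Cdx1, Cdx2, Fabp1, Fabp2, Muc2 and Sis were not well above background on both arrays of any genotype. The other 6 of 12 intestinal markers summed to 330 to 348 in Spink3+/+, 346 to 371 in Spink3-/- and 313 to 334 in Spink3-/-XKI/+. Such a sum follows its brightest markers, and single markers differed in both directions. Agr2 differed by 0.98 in Spink3-/- against Spink3+/+ (limma adjusted p = 0.928). Lgals4 differed by -0.97 in Spink3-/- against Spink3-/-XKI/+ (limma adjusted p = 0.552). Of the 6 in that comparison, 4 were higher and 2 lower, and the lowest limma adjusted p was 0.238. The lowest difference there, -1.17, was that of a marker not well above background on all arrays. The part of intestinal transcripts in the Zg16 and Dmbt1 values was not tested.

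Cuzd1, a zymogen granule membrane protein with CUB and zona pellucida domains, was at 2.44 and 3.21 in Spink3+/+, 2.74 and 2.47 in Spink3-/-, and 3.14 and 2.81 in Spink3-/-XKI/+. The Spink3+/+ arrays alone spanned the other 4. Its differences were -0.22, 0.15 and -0.37 (SE 0.29 each), with limma adjusted p-values of 0.991, 0.929 and 0.843.

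Of the GTPases, Rab3d marks the mature zymogen granule. Its levels were 2.46 and 2.73 in Spink3+/+, 2.55 and 2.62 in Spink3-/-, and 2.36 and 2.08 in Spink3-/-XKI/+. Both Spink3-/-XKI/+ arrays were below the other 4, while Spink3-/- lay inside the Spink3+/+ range. Rab3d was higher in Spink3-/- than in Spink3-/-XKI/+ by 0.37 (SE 0.19, interval -0.10 to 0.83, limma adjusted p = 0.736), opposite in sign to the difference of Gp2. The dimmer Rab3d probe, whose stretch is printed above, differed by -0.01 in that comparison (SE 0.27), with levels that overlapped in all genotypes, from -0.42 to 0.18.

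Rab27b, which acts with Rab3d on the granule surface, was at -0.51 and -0.51 in Spink3+/+, -0.79 and -0.95 in Spink3-/-, and -0.40 and -0.62 in Spink3-/-XKI/+. The Spink3-/- arrays were the lowest, by 0.36 against either other genotype (SE 0.17, limma adjusted p = 0.987 and 0.723). Its second probe gave -0.63 and 0.23, -0.28 and -1.48, and -0.38 and -1.68 in the same order. There replicate 2 was far below replicate 1 in both Spink3-deficient genotypes, and all genotypes overlapped.

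The vesicle SNARE Vamp8, which has the main part in regulated enzyme release, was at 3.62 and 3.57 in Spink3+/+, 3.38 and 3.50 in Spink3-/-, and 3.46 and 3.38 in Spink3-/-XKI/+. Both Spink3+/+ arrays were above the other 4, by little: the differences were -0.16 and -0.18 (SE 0.16), with intervals of -0.55 to 0.23 and -0.57 to 0.21. The difference of the 2 Spink3-deficient genotypes was 0.02 (interval -0.37 to 0.41).

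Vamp2, the other vesicle SNARE of the granule, was at 1.99 and 1.87 in Spink3+/+, 1.68 and 1.53 in Spink3-/-, and 1.83 and 1.65 in Spink3-/-XKI/+. Spink3+/+ was again above the others, by 0.32 over Spink3-/- (difference -0.32, SE 0.17, interval -0.74 to 0.09) and by 0.19 over Spink3-/-XKI/+ (difference -0.19). The limma adjusted p-values were 0.987 and 0.832. Its other probe, designed on a different transcript model at chr11:68903917-68903976, was not well above background on any array, and the same held for the Stx3 probe at chr19:11850243-11850302, designed on the second Stx3 transcript variant.

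Stx3, the syntaxin found on the zymogen granule itself, where it serves fusion between granules, was at 0.67 and 0.90 in Spink3+/+, 1.01 and 1.07 in Spink3-/-, and 0.51 and 0.50 in Spink3-/-XKI/+. No 2 genotypes overlapped, with Spink3-/- highest and Spink3-/-XKI/+ lowest, the reverse of Gp2. The difference between these was 0.53 (SE 0.17, interval 0.12 to 0.94, unadjusted p = 0.0187, limma adjusted p = 0.577), a 1.45-fold higher signal in Spink3-/-, and 0.56 within the second slide row. Differences from Spink3+/+ were 0.26 in Spink3-/- and -0.28 in Spink3-/-XKI/+ (SE 0.17 each).

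The Stx3 junction probe, with 10 spots per array, was well above background only in Spink3-/-XKI/+ by the rule used, and its levels were -2.98 and -2.52 in Spink3+/+, -2.65 and -1.94 in Spink3-/-, and -2.70 and -2.09 in Spink3-/-XKI/+. The genotypes overlapped on it, and the SD between spots on 1 array was 0.135 to 0.565. Averaging both tested Stx3 probes gave 0.32 between Spink3-/- and Spink3-/-XKI/+, and turned the difference of Spink3-/-XKI/+ from Spink3+/+ to 0.039.

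**Figure D3:**
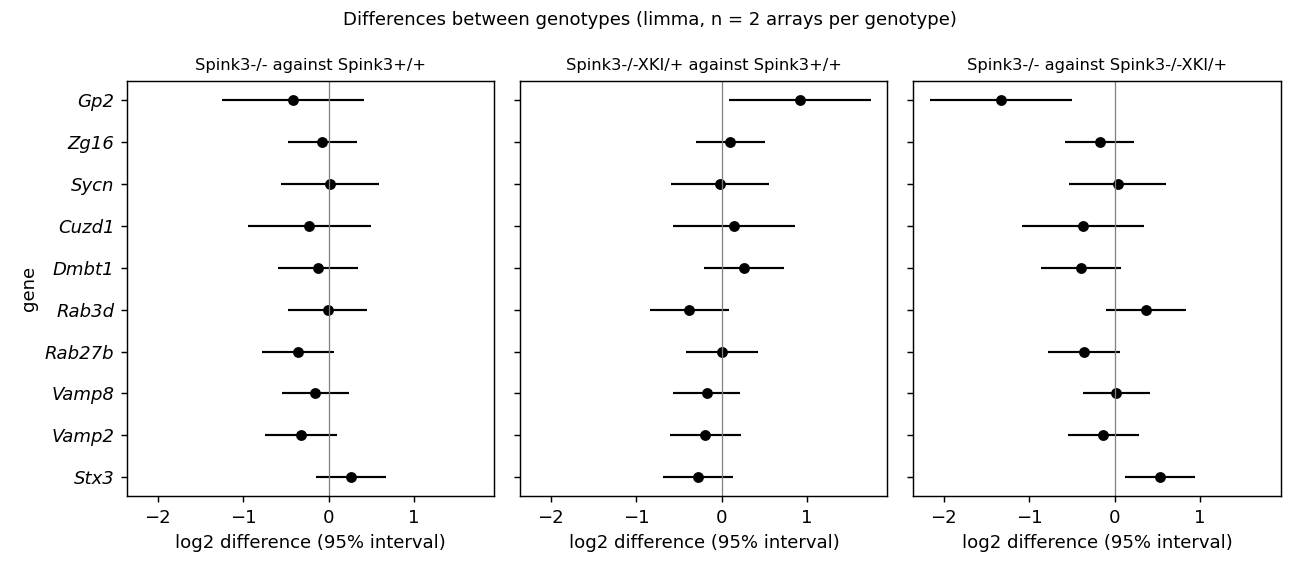
Log2 difference of each gene in the 3 comparisons, first genotype minus second, as a point with its 95% interval from limma, n = 2 arrays per genotype. Intervals of Gp2 leave out 0 in both comparisons with Spink3-/-XKI/+ and that of Stx3 in the comparison of Spink3-/- with Spink3-/-XKI/+, before adjustment over all genes.

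By the order of their means, 5 genes ran from Spink3-/- (lowest) over Spink3+/+ to Spink3-/-XKI/+ (highest): Gp2, Zg16, Cuzd1, Dmbt1 and Rab27b. Sycn and Stx3 ran the opposite way, Rab3d and Vamp8 were lowest in Spink3-/-XKI/+ and highest in Spink3+/+, and Vamp2 was lowest in Spink3-/- and highest in Spink3+/+. In every gene except Stx3, at least 1 pair of neighbours in the order overlapped. Small gaps placed Sycn, which differed from Spink3+/+ by 0.015 in Spink3-/- and by -0.021 in Spink3-/-XKI/+. Rab3d differed by only -0.012 between Spink3-/- and Spink3+/+, and Vamp8 by 0.020 between Spink3-/- and Spink3-/-XKI/+. Rab27b was in the first group by a Spink3-/-XKI/+ minus Spink3+/+ difference of only 0.0015. With its second probe, Rab27b was lowest in Spink3-/-XKI/+ and highest in Spink3+/+. These orders are those of the probes that stand for the genes, and the other kept probes of Rab27b, Rab3d and Stx3 gave other orders. The comparisons share samples, so the orders are a description of 6 arrays.

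Digestive enzymes, the cargo of the granule, were described through a list of 27 genes, of which 25 are on the array and 24 were tested. None was called in any comparison, and 3 of 24 were lower at an unadjusted p of 0.05 in Spink3-/- against Spink3+/+, 2 higher in Spink3-/-XKI/+ against Spink3+/+ and 2 lower in Spink3-/- against Spink3-/-XKI/+, where the shares of all genes in either direction were 5.06%, 7.57% and 7.21%. Their medians were -0.14, 0.02 and -0.09. Of the 24, 7, 13 and 5 were higher in the 3 comparisons, beside 49.1%, 56.3% and 42.7% of all tested genes. Wholly lower lay 9, 5 and 6, beside 16.6%, 16.1% and 21.4% of all tested genes. Wholly higher lay 0, 3 and 1, beside 16.1%, 26.0% and 13.1%. The lipolytic enzymes Pnlip and Pla2g1b, named for their size of difference, had the genotype order of Gp2 with no overlap. Pnlip, pancreatic lipase, was at -0.07 and -0.79 in Spink3+/+, -1.95 and -1.73 in Spink3-/-, and 0.96 and 0.36 in Spink3-/-XKI/+, a difference of -2.50 between the latter (SE 0.32, limma adjusted p = 0.224), and of -1.45 with normexp background correction. Pla2g1b, the secreted phospholipase A, was at 3.45 and 3.56, 2.90 and 2.91, and 3.95 and 4.23, a difference of -1.18 (SE 0.18, limma adjusted p = 0.238). The other genes of fat digestion on the list, looked up after the values were seen, did not share this order: Spink3-/-XKI/+ differed from Spink3+/+ by -0.56 for the carboxyl ester lipase Cel, -0.29 for Pnliprp2, -0.03 for Pnliprp1 and 0.02 for colipase (Clps). Between Spink3-/- and Spink3-/-XKI/+ these differed by 0.42, -0.11, -0.02 and -0.01. Unlike for the brighter Gp2 probe, both Spink3-/- arrays were below both Spink3+/+ arrays for Pnlip and Pla2g1b. The chymotrypsin-like protease Ctrl, at 6.57 and 7.32 in Spink3+/+ and 6.12 and 6.08 in Spink3-/-, differed by -0.84 (SE 0.32, limma adjusted p = 0.985).

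Of 70 other genes of the exocytosis machinery, 61 were tested and none was called. Their medians were -0.02, 0.06 and -0.03, and 29, 38 and 26 of 61 were higher in the 3 comparisons. Rab3il1, an exchange factor for Rab GTPases, was at 1.90 and 1.78 in Spink3+/+, 1.69 and 1.59 in Spink3-/-, and 2.58 and 2.38 in Spink3-/-XKI/+. It differed by -0.84 between Spink3-/- and Spink3-/-XKI/+ (SE 0.17, limma adjusted p = 0.408). In Spink3-/-XKI/+ it was higher by 0.64 than in Spink3+/+ (SE 0.17, limma adjusted p = 0.478). Syt1, the calcium sensor of neurons and endocrine cells, was at -1.56 and -1.37, -0.62 and -1.08, and -0.53 and 0.85, higher by 1.62 in the same comparison (SE 0.45, limma adjusted p = 0.490), and by 0.94 with normexp. The 9 tested nerve and glia markers summed to 79.3 to 81.5 in Spink3+/+, 91.4 to 96.2 in Spink3-/- and 88.5 to 105 in Spink3-/-XKI/+, and their part in the Syt1 value was not tested. Stxbp3, which binds syntaxins, and the endosomal GTPase Rab5a stood out on 1 array only: Spink3-/- replicate 2 was at 2.52 and 3.53, where the other 5 arrays lay between -0.16 and 0.20 for Stxbp3 and between 0.86 and 1.10 for Rab5a. Their differences from Spink3+/+ were 1.47 and 1.34 with all arrays (limma adjusted p = 0.987 for both), 0.55 and 0.50 with all kept probes of a gene averaged, and 0.28 and 0.09 without that array.

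Receptors and calcium signalling genes upstream of granule release gave 19 tested of 23, none called, with medians of -0.10, 0.17 and -0.22. Chrm3, the muscarinic receptor through which acetylcholine triggers enzyme release, was at -1.46 and -1.29 in Spink3+/+, -1.34 and -1.23 in Spink3-/-, and -2.02 and -2.19 in Spink3-/-XKI/+. It was lower in Spink3-/-XKI/+ than in Spink3+/+ (difference -0.73, SE 0.17, limma adjusted p = 0.441), and Spink3-/- was above Spink3-/-XKI/+ by 0.82. With normexp background correction these Chrm3 differences shrank to -0.21 and 0.27. The secretin receptor Sctr was at 0.83 and 0.64, 0.64 and 0.67, and 1.12 and 1.55, higher by 0.60 in Spink3-/-XKI/+ than in Spink3+/+ (SE 0.20, limma adjusted p = 0.594). Vipr1, a receptor for vasoactive intestinal peptide, differed by -0.71 between Spink3-/- and Spink3-/-XKI/+. The adenylate cyclase Adcy6 differed by -0.53 and the plasma membrane calcium pump Atp2b1 by 0.50 between Spink3-/- and Spink3+/+. None of the 3 passed (limma adjusted p = 0.573, 0.987 and 0.985), and the differences were -0.40 for Vipr1 and -0.33 for Adcy6 with normexp, and 0.30 for Atp2b1 with its probes averaged.

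Of 12 transcription factors of acinar cells, 11 were tested and none was called, with medians of -0.13, -0.09 and -0.19. The largest differences from Spink3+/+ were those of Mecom, which was not well above background on all arrays. They were -1.49 in Spink3-/- and -1.32 in Spink3-/-XKI/+ (SE 0.56 each, limma adjusted p = 0.985 and 0.675). Among genes well above background on all arrays, Foxa2 differed by -0.48 and Ptf1a, which drives the acinar program, by -0.39 between Spink3-/- and Spink3+/+. Ptf1a was at 1.01 and 0.54 in Spink3+/+ and at 0.97 and -0.19 in Spink3-/-, so that replicate 2 alone lay below, and the difference was 0.19 without it. Foxa3 differed by 0.68 and Gata4 by -0.39 between Spink3-/-XKI/+ and Spink3+/+. The limma adjusted p-values of Foxa2, Ptf1a, Foxa3 and Gata4 were 0.985, 0.989, 0.627 and 0.775. The Foxa3 difference ran from 0.39 with normexp to 1.05 with slide row as a block.

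**Figure D4:**
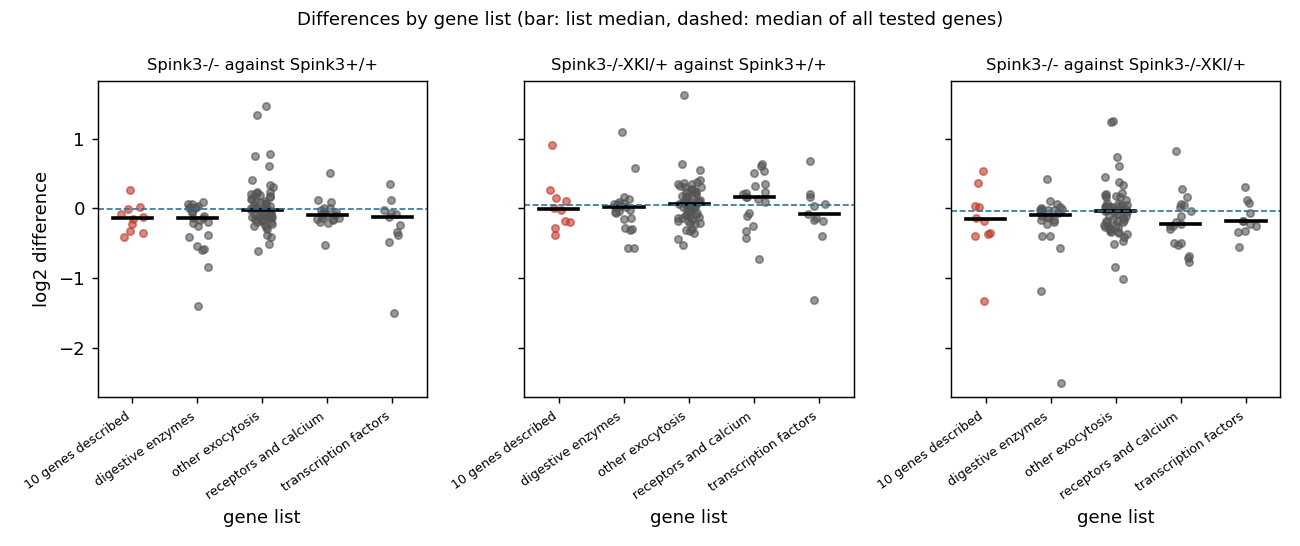
Log2 differences in the 3 comparisons for the 10 genes (red) and for the tested genes of 4 other lists (grey), with the list median as a bar and the median of all tested genes as a dashed line. The list medians lie between -0.22 and 0.17, and single genes such as Pnlip at -2.50 lie far outside the rest of their list.

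Likeness of pattern was measured as the root-mean-square difference between levels centred on their own mean over the 6 arrays, among 12432 genes with plain symbols. The gene nearest to Sycn was Cpa1, the granule enzyme carboxypeptidase A, with a difference of 0.03, and its levels were 10.97 and 11.27 in Spink3+/+, 10.87 and 11.40 in Spink3-/-, and 11.05 and 11.09 in Spink3-/-XKI/+. Next came Sil1, an exchange factor for a chaperone of the endoplasmic reticulum, with 0.05. Rab3d was nearest to Zfp706 (0.03), Manf (0.04), which encodes a protein of the endoplasmic reticulum that is raised under stress, and Ssr2 (0.05), a subunit of the complex at the protein translocation channel. The genes closest to Gp2, Flt3l, Abca8a and Armh1, were 0.22 to 0.23 away, and Armh1 was above background on only 2 arrays. The measure is not scaled by spread, and Gp2 varied most, with an SD over arrays of 0.70. The lowest such SD was 0.10 (Vamp8) and the next highest 0.32 (Cuzd1). Dmbt1 was nearest to Arhgap9 (0.03), Zg16 to Armc6 (0.02), Cuzd1 to Traf3 (0.07), Rab27b to Nfib (0.03), Vamp8 to Mrm3 (0.02), Vamp2 to Tmem50a (0.05) and Stx3 to Nkapd1 (0.04). Genes that vary little are near many others by this measure, and 6 arrays of 3 genotypes give few independent points.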

How the data were processed

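Total RNA of 6 whole pancreas samples was hybridised in Cy3 to Agilent mouse arrays, 1 array per sample, and samples were grouped by the genotype in their labels. The deposited intensity values are the scanner software's processed signals (Agilent Feature Extraction 10.7.3.1), background-subtracted on a linear scale per the file headers, with no step between arrays. The whole-series value table held the same values. Each array carried 55681 non-control probes. Here the log2 of an array's 75th percentile (signal 111 to 155) was subtracted from each log2 signal, outlier spots were left out, and spots of a probe averaged. Probes well above background (at least 0.5 of their spots) on both arrays of a genotype were kept, 24820 or 44.6%, and 14 of the 16 described here. Names came from a RefSeq table where accession or symbol matched; 22417 probes had none. The brightest kept probe stood for a gene. Genotypes were compared with limma 3.58.1 (R 4.3.3, lmFit and eBayes on all 6 arrays, two-sided), adjusted over 14169 genes by Benjamini-Hochberg, threshold 0.05, after a test on simulated data. Alternatives covered background correction, scaling, filters, probe choice, fit, blocks and single arrays. The members and lists were chosen with earlier results of these data known. Named genes of a list are called ones, otherwise up to 2 per comparison with the greatest difference among genes above background on all arrays. Figures used matplotlib 3.10.9.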

Additional observations from a re-analysis of the deposited data

How the results depend on the processing

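None of the 10 genes was called under any of the 12 alternatives with all arrays or with any of the 6 arrays left out. Of the 360 values of the 10 genes under alternatives with all arrays, 12 turned sign, none called. Normexp gave 1 called gene over the whole array in Spink3-/- against Spink3+/+, 2 in Spink3-/-XKI/+ against Spink3+/+ and 0 in Spink3-/- against Spink3-/-XKI/+, a median of the 10 genes of -0.052 in the last, -0.50 for Rab27b and 0.0019 for Sycn in the second, and 0.13 for Rab27b in the last. In the main processing the second Rab27b probe gave -0.83 in the second and 0.15 in the last comparison, the signs seen under normexp. Whether that probe stood for Rab27b under normexp was not analysed here, so these sign changes need not be those of the same probe. Quantile normalization gave 3 calls in the second and 4 in the last comparison and -0.015 for Zg16 in the second. The 75th percentile over probes above background everywhere gave -0.017 for Sycn in the first and -0.049 for Rab27b in the second, and the median of those probes -0.027 for Rab27b. Calls in the first and last comparison were 1 and 0 with no filter, with the filter on all 6 arrays and with only 2 genotypes fitted. Averaging probes gave 2 calls in the first, -0.41 for Rab27b and 0.039 for Stx3 in the second. A variance trend gave 2, 2 and 0 calls. Slide row as a block gave 1, 0 and 3 calls, -0.23 for Sycn and 0.19 for Ptf1a in the first, and -0.047 for Gp2 and -0.064 for Zg16 in the second. The deposited series values repeat the main fit.

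The replicate block gave 1 call in the first comparison and 0 in the last, and no other call of the text changed. Same-numbered samples shared only a number: their deviations correlated at -0.055, 0.031 and 0.20 between pairs of genotypes.

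Leaving out single arrays, calls over all genes ran from 1 to 290, 1 to 306 and 0 to 295 in the order of comparisons above, and medians of the 10 genes from -0.22 to 0.023, -0.14 to 0.079 and -0.21 to -0.10. A lone array was then assumed to vary like the other groups. In Spink3-/- against Spink3+/+ the ranges that crossed 0 were -0.61 to 0.16 for Cuzd1, -0.32 to 0.064 for Dmbt1, -0.90 to 0.064 for Gp2, -0.15 to 0.12 for Rab3d, -0.23 to 0.26 for Sycn, -0.16 to 0.0075 for Zg16 and -0.97 to 0.19 for Ptf1a. In Spink3-/-XKI/+ against Spink3+/+ they were -0.24 to 0.53 for Cuzd1, -0.83 to 0.0022 for Rab27b and -0.21 to 0.16 for Sycn. In Spink3-/- against Spink3-/-XKI/+ they were -0.50 to 0.75 for Rab27b, -0.21 to 0.28 for Sycn, -0.038 to 0.078 for Vamp8 and -1.13 to 0.026 for Ptf1a. Without Spink3-/- replicate 2, and likewise without Spink3-/-XKI/+ replicate 2, the second Rab27b probe is the brighter one and stands for the gene. Without Spink3-/- replicate 1, Stxbp3 and Rab5a were called at 2.67 and 2.59 against Spink3+/+ and 2.43 and 2.51 against Spink3-/-XKI/+, and without Spink3-/-XKI/+ replicate 1 Syt1 was called at 2.31. The cause of the other changes was not tested. Probes of Vamp2 and Stx3 that were not well above background on any array give no comparison.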
